A study of Mus musculus with 38 samples.

Results

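Trp53inp1, Aen, Nudt1 and Top3a are 4 mouse genes that act in the p53 pathway or keep nucleic acids intact. They were selected on measured values of these same arrays, because results of this series were known when the group was put together, so their values are given as a description. Fits across all features also cover them, and their calls are listed beside the share of all features called, with nothing read from them. The 4 genes are 4 of 6512 genes that could be named among 21618 distinct gene features, each of them measured by 1 feature found through its RefSeq accession. All 4 passed the filter used for the tests, which left 14513 features with values on 19 or more arrays, every strain contributing in each dye orientation.

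The study compared spleen RNA of male mice given a single dose of 10 rad X-ray with that of sham-exposed males of the same strain, both taken 3.5 h after exposure. The 6 groups were the strains A/J, B6.C, BalbxJ, BI6Jx, C3H and DBA/2J as the labels spell them, with ages of 10 to 14 weeks in the labels and no transgene or other agent named. Each of the 38 two-colour arrays held RNA of 1 irradiated and 1 sham mouse joined at random, of which 19 carried the irradiated sample in Cy5 and the other 19 in Cy3. A/J, B6.C and BalbxJ had 8 arrays each, C3H had 6, and BI6Jx and DBA/2J had 4 each, and each pair of mice was meant to appear on 2 arrays with the dyes exchanged. The labels do not say which arrays are such exchanges, so arrays of a strain are not all independent.

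The transcription factor p53 is stabilised when DNA is damaged and switches on genes for growth arrest, repair and cell death. Trp53inp1, tumour protein p53 inducible nuclear protein 1, is such a target and takes part in p53-dependent cell death and in autophagy. Aen, apoptosis-enhancing nuclease, is a p53-induced exonuclease that acts on nucleic acids in dying cells. Nudt1, also called MTH1, breaks down oxidised purine nucleotides such as 8-oxo-dGTP before they can enter DNA. Top3a is a type IA topoisomerase that works with the BLM helicase to resolve joined DNA molecules, and a form of it serves mitochondrial DNA. Spleen is rich in lymphocytes, which are known for p53-dependent death after irradiation.

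In mouse assembly GRCm38.p6, Trp53inp1 lies at chr4:11156441-11174379, Aen at chr7:78895927-78911209, Nudt1 at chr5:140321622-140338137 and Top3a at chr11:60738209-60777365. These spans come from RefSeq genes, and the array files hold no probe position, so the exon measured is not known. The RefSeq promoter table matched 2 of the 4 genes, Aen with 2 start sites and Nudt1 with 3. A short stretch of Aen is shown because Aen is a p53 target and these letters fit the p53 half-site consensus. It lies on the plus strand at chr7:78895927-78895956, at the first listed start and upstream of the second, with the match in capitals.

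Aen, p53 half-site match: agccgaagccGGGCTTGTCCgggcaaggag

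The match is a description of letters and not a binding site. In the 250 bases before the start, the half-site consensus, searched on both strands, matched 7.126% of 32851 RefSeq windows. No other Aen or Nudt1 window matched it. The 250 bases before the first start of each gene are shown next, both on the plus strand, to let the 2 promoters be compared. For Aen this is chr7:78895677-78895926, with the letters CCAAT in capitals. For Nudt1 it is chr5:140321372-140321621, with the letters CTCGCGAG in capitals.

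Aen, first start: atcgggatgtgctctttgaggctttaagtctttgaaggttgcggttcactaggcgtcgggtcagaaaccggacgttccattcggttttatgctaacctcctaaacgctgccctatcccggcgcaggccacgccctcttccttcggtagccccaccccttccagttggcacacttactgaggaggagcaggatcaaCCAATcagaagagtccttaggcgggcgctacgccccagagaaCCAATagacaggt
Nudt1, first start: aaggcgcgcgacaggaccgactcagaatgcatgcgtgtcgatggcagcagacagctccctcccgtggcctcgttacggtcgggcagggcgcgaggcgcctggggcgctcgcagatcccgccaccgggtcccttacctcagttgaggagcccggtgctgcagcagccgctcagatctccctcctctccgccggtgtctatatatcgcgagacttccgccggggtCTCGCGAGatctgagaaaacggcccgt

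CCAAT or its reverse complement occurred in 33.85% of all windows and CTCGCGAG, its own reverse complement, in 0.761%. The CCAAT letters stood at 2 places before the first Aen start, the farther one beginning 55 bases upstream, and at none before the first Nudt1 start. CTCGCGAG began 27 bases before the first Nudt1 start and was in no Aen window. GGGCGG, in 32.742% of windows on either strand, was absent from both stretches shown, as was TATAAA, in 12.368%. The array values below do not bear on any of these letters.

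The deposited values are signed scores of which the scale, the log base and the dye direction are not stated. No fold change is therefore computed, and the levels of the genes cannot be compared with each other. Each array was centred on its median, because array medians ran from -3.16 to 3.95, and arrays with irradiated RNA in Cy3 had their sign turned. If the scores divide Cy5 by Cy3, a positive turned value means more signal in the irradiated mouse, and if they divide Cy3 by Cy5 it means less. In each strain the mean of the Cy5 arrays and the turned mean of the Cy3 arrays were averaged into 1 strain value. In whole spleen, a change in the number of cells of a type and a change in RNA per cell cannot be told apart.

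Arrays 97 of BI6Jx and 50 and 53 of B6.C correlated under -0.3 with 8, 4 and 3 arrays of their own dye orientation, so their direction is not settled. The C3H arrays all had medians below 0 (-3.16 to -0.72), and 5 of 6 had an SD over features between 1.72 and 2.35. Among marker genes of spleen cells, 6 of B cells had values on 30 to 38 arrays each and 7 of T cells on 8 to 37. For 4 macrophage genes it was 24 to 38 arrays and for 5 erythroid genes 28 to 38. Genes of the pancreas, which lies beside the spleen, had values as well (14 genes, 2 to 38 arrays). So did 4 adipose genes (8 to 38 arrays), and having a value therefore does not tell spleen from other tissue. Of the 12 pancreas genes that were tested, 11 lay on the negative side (median -0.47 over 6 strains). The part of pancreatic RNA in the members' values was not tested. Of all 14513 features, 48.7% had a positive mean over 6 strains and the median mean was -0.0068.

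Ranked by absolute mean over 6 strains among all features, Trp53inp1 stood at percentile 91.8, Aen at 69.7, Nudt1 at 55.6 and Top3a at 59.3. Trp53inp1 had a mean strain value of -0.43 ± 0.98 (SD, n = 6 strains; standard error from limma 0.31). The mean was 0.24 ± 0.61 for Aen (SD, n = 6 strains; standard error 0.21) and -0.18 ± 0.46 for Nudt1 (SD, n = 6 strains; standard error 0.17). For Top3a it was 0.19 ± 0.21 (SD, n = 6 strains; standard error 0.12). Trp53inp1 was on the positive side in 3 of 6 strains, Aen in 4, Nudt1 in 2 and Top3a in 5.

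By limma with Benjamini-Hochberg adjustment, 0 of the 4 members were called over 6 strains, where 0% of all features were called. At an unadjusted p under 0.05 the same fit gave 1191 features. Without C3H, the mean was -0.043 for Trp53inp1, 0.0042 for Aen, -0.030 for Nudt1 and 0.12 for Top3a. Without C3H array 27 alone, the mean of Nudt1 was 0.013, and without C3H array 28 alone that of Aen was 0.074. Outside C3H, all 20 strain values of the 4 members lay within 0.5 of 0, as did 77.0% of the values of all features in those strains.

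**Figure D1:**
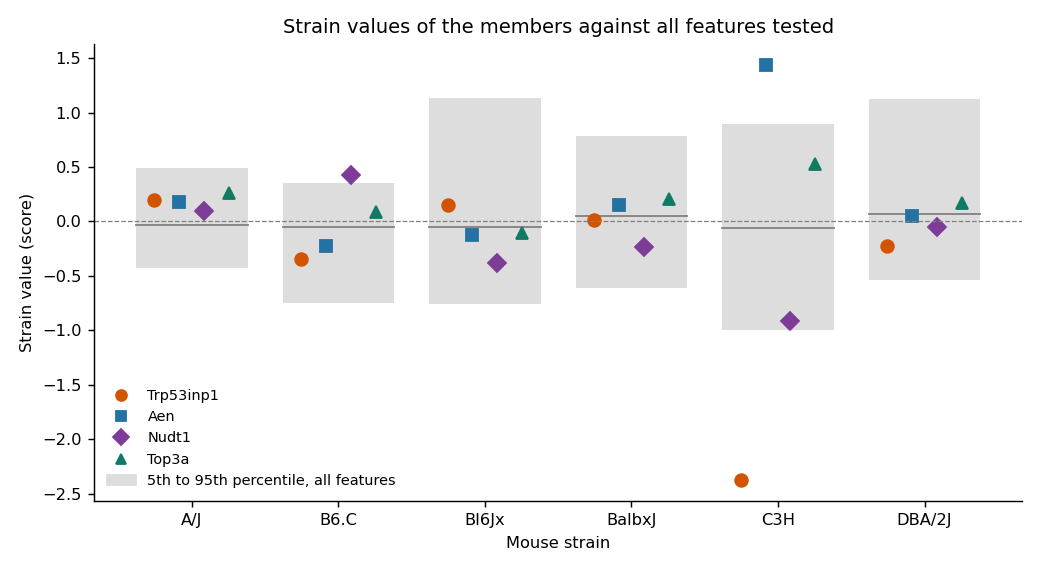
Strain value (score) of each member in the 6 strains, with grey boxes from the 5th to the 95th percentile of all 14513 features and a grey line at their median. Trp53inp1 at -2.38 and Aen at 1.44 leave the box in C3H and Nudt1 at 0.43 leaves it in B6.C, while the other values lie inside.

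Trp53inp1 had values on 32 arrays, from -6.28 to 1.29 with a median of -0.090. In C3H the 5 arrays with a value were all negative. With irradiated RNA in Cy5 they read -5.03, -6.28 and -0.54, and with irradiated RNA in Cy3 they read -0.98 and -0.63 after turning. Both orientations were thus on one side, but the Cy5 arrays averaged -3.95 and the Cy3 arrays -0.80. The C3H strain value of -2.38 stood at the 0.655th percentile of all features in that strain.

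Array 24 of C3H, with irradiated RNA in Cy3, had no value for any member. The fit for single strains took all 38 arrays together, with a coefficient for each strain and a dye term and spread shared by all. For the C3H coefficient 1 of the 4 members was called, Trp53inp1, where 0.51% of all features were called. Its coefficient there was -2.69 (standard error 0.56). That error draws on the spread of all strains, while the SD over the 5 C3H arrays was 2.75. Since the gene was chosen with these values known, nothing is read from the call. It ended without array 27, where the coefficient was -1.79, and also without centring (-3.42) or with each array scaled to its median absolute deviation (-3.14, in scaled units).

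In the other strains Trp53inp1 stayed nearer to 0. The A/J arrays ran from -0.64 to 1.29 around a median of 0.17, with 4 of 6 positive. The 8 B6.C arrays ran from -1.74 to 0.87 around -0.10. Of the 4 B6.C arrays with irradiated RNA in Cy5 3 were positive, and array 53, of unsettled direction, was the exception at -1.46.

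The 7 BalbxJ arrays ran from -0.92 to 0.69 with a median of 0.21. In BI6Jx the only arrays with a value read 0.19 in Cy5 and 0.12 in Cy3. In DBA/2J the arrays read -0.081 and 0.36 in Cy5, and -1.10 and -0.099 in Cy3. The values of A/J, B6.C, BalbxJ and DBA/2J overlapped, and the strain values in these 4 ran from -0.35 in B6.C to 0.20 in A/J. The C3H arrays overlapped with those of A/J, B6.C, BalbxJ and DBA/2J, because 3 of the 5 lay between -0.98 and -0.54.

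Aen had values on 22 arrays, from -1.21 to 5.53 with a median of -0.053. In C3H it read 1.47 and 5.53 on the arrays with irradiated RNA in Cy3 and -0.62 on the array with it in Cy5. The dye orientations thus took opposite sides, and before turning all 3 C3H arrays were negative (-1.47, -5.53 and -0.62). Here 2 arrays of one orientation stood against 1 of the other. The C3H strain value of 1.44 lay at the 97.6th percentile of all features, and was 0.42 without array 28 and 2.45 without array 26.

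Outside C3H, the Aen arrays ran from -1.21 to 0.80, and 18 of 19 were within 1 of 0. In A/J they read -0.36, 0.33 and -0.068 in Cy5, and 0.80 and -0.040 in Cy3. In B6.C they read -0.066 and -0.032 in Cy5, and -0.12, 0.095 and -1.21 in Cy3. The last of these, array 54, lay far below the other 4.

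In BalbxJ the Aen arrays read 0.097, -0.23 and -0.72 in Cy5 and 0.60 in Cy3. In BI6Jx they read 0.61 and -0.42 in Cy5 and -0.34 in Cy3. In DBA/2J they read -0.073 in Cy5 and 0.16 in Cy3. The strain values of Aen outside C3H lay between -0.23 in B6.C and 0.17 in A/J, and the arrays of all 5 strains overlapped. Only B6.C had Aen on the same side in both orientations.

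**Figure D2:**
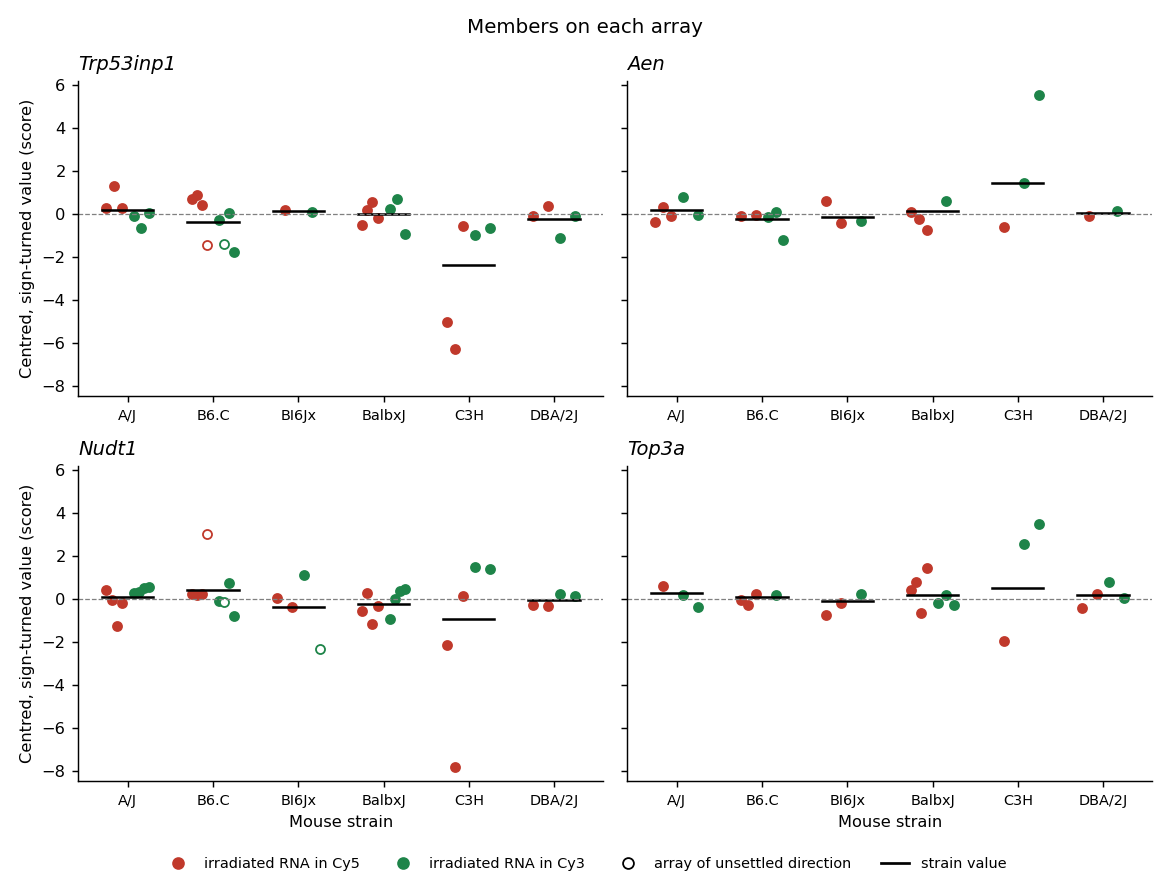
Centred, sign-turned value (score) of Trp53inp1, Aen, Nudt1 and Top3a on each array by strain, in red where irradiated RNA was in Cy5, in green where it was in Cy3 and open where the direction of the array is not settled; black lines are strain values. The C3H arrays spread most widely, and only for Trp53inp1 do all of them (5 arrays) lie below 0.

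Nudt1 had values on 37 of 38 arrays, more than any other member, from -7.82 to 3.05 with a median of 0.12. In C3H it read -2.13, -7.82 and 0.12 in Cy5, and 1.51 and 1.39 in Cy3. The mean was -3.28 in Cy5 and 1.45 in Cy3, opposite sides, and before turning 4 of the 5 arrays were negative. The array at -7.82 was the one that also gave the lowest Trp53inp1 value, array 27. The C3H strain value of -0.91 became 0.23 without it, and -1.76 without array 29.

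In B6.C, Nudt1 ran from -0.81 to 3.05 around a median of 0.22. Its strain value there, 0.43, lay at the 97.6th percentile of all features in that strain. The highest array was 53, whose direction is not settled. The strain value was 0.078 without it, and -0.29 when arrays 50 and 53 were given the opposite sign. The other 3 arrays with irradiated RNA in Cy5 read between 0.20 and 0.25. In A/J the 8 arrays ran from -1.24 to 0.58, and in BalbxJ from -1.18 to 0.49.

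In BI6Jx, Nudt1 read 0.070 and -0.39 in Cy5, and 1.13 and -2.33 in Cy3, the last on array 97 of unsettled direction. In DBA/2J it read -0.26 and -0.32 in Cy5, and 0.24 and 0.14 in Cy3. The arrays of all 6 strains overlapped. In A/J, C3H and DBA/2J the Cy5 mean was negative and the turned Cy3 mean positive. As deposited, before centring, Nudt1 ran from -10.96 to -1.95 in C3H and from -3.67 to 5.90 in B6.C.

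Nudt1 was the only member with a value on all 19 arrays with irradiated RNA in Cy5, so it alone entered the F test of a difference between strains. It was not called there, where 1.76% of 4437 features were called.

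Top3a had values on 24 arrays, from -1.97 to 3.50 with a median of 0.20. In C3H it read -1.97 in Cy5, and 2.55 and 3.50 in Cy3. As for Aen, all 3 C3H arrays were negative before turning, and the orientations took opposite sides after it. The C3H strain value of 0.53 lay at the 88.9th percentile of all features, but became -0.088 once each array was scaled to its median absolute deviation. It was 0.29 without array 28.

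In A/J, Top3a read 0.62 in Cy5, and 0.20 and -0.38 in Cy3. In B6.C it read -0.055, -0.29 and 0.24 in Cy5 and 0.21 in Cy3. In BI6Jx it read -0.73 and -0.17 in Cy5 and 0.23 in Cy3. These 3 strains overlapped, and no array among them was farther than 0.73 from 0.

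In BalbxJ, Top3a ran from -0.66 to 1.47 over 7 arrays with a median of 0.20. In DBA/2J it read -0.39 and 0.23 in Cy5, and 0.81 and 0.034 in Cy3. The 5 positive strain values ran from 0.089 in B6.C to 0.53 in C3H, and the only negative one was -0.11 in BI6Jx. In none of the 6 strains were both dye orientations of Top3a on one side. Its mean over strains was -0.24 from Cy5 arrays alone and 0.62 from Cy3 arrays alone.

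Over 6 strains, 3 of the 4 members split by dye. The mean over strains from Cy5 arrays alone and from Cy3 arrays alone was -0.16 and 0.65 for Aen, and -0.58 and 0.23 for Nudt1. Trp53inp1 read -0.47 and -0.39, on one side, but this rested on C3H: without it the means were 0.22 in Cy5 and -0.31 in Cy3. Without C3H, the Cy5 and Cy3 means were -0.069 and 0.078 for Aen, -0.045 and -0.015 for Nudt1, and 0.11 and 0.14 for Top3a. In these means over strains the opposite sides of Nudt1 and Top3a thus rested on C3H as well. Single strains other than C3H still split by dye, Top3a in each of them and Nudt1 in A/J, B6.C and DBA/2J. Aen did so in A/J, BalbxJ, BI6Jx and DBA/2J, and Trp53inp1 in A/J, B6.C, BalbxJ and DBA/2J. The splits of Trp53inp1 all had a positive Cy5 mean and a negative turned Cy3 mean. They read 0.63 and -0.23 in A/J, 0.14 and -0.83 in B6.C, and 0.14 and -0.60 in DBA/2J, but only 0.024 and -0.0001 in BalbxJ. Those of the other members ran in differing directions. By strain, Trp53inp1 held both orientations on one side in 2 of 6, C3H and BI6Jx, as Nudt1 did in BalbxJ and BI6Jx.

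Within the single strains other than C3H, 0 of the 4 members were called. The share of all features called was 0% in A/J, 0.186% in B6.C, 0% in BalbxJ, 0.0345% in BI6Jx and 0% in DBA/2J. At an unadjusted p under 0.05 the same limma fits gave 61 features in A/J, 837 in B6.C, 1203 in BalbxJ, 927 in BI6Jx and 900 in DBA/2J, none of them a member. In C3H they gave 1737 (12.0% of all features), among them Trp53inp1 and Aen, 2 of the 4 members.

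The values of the members were ranked among all features of their own array. By definition, the 5th and 95th percentiles leave out 5% of these features at each end. Between the 5th and 95th percentiles lay 31 of 32 values of Trp53inp1, 20 of 22 of Aen, 34 of 37 of Nudt1 and 24 of 24 of Top3a. The lowest was Nudt1 on C3H array 27, at the 2.06th percentile, where Trp53inp1 stood at the 3.57th. The highest was Nudt1 on B6.C array 53, at the 99.7th. The Aen value of 5.53 in C3H stood at percentile 96.2 of its array, so it was less extreme by rank than by score.

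**Figure D3:**
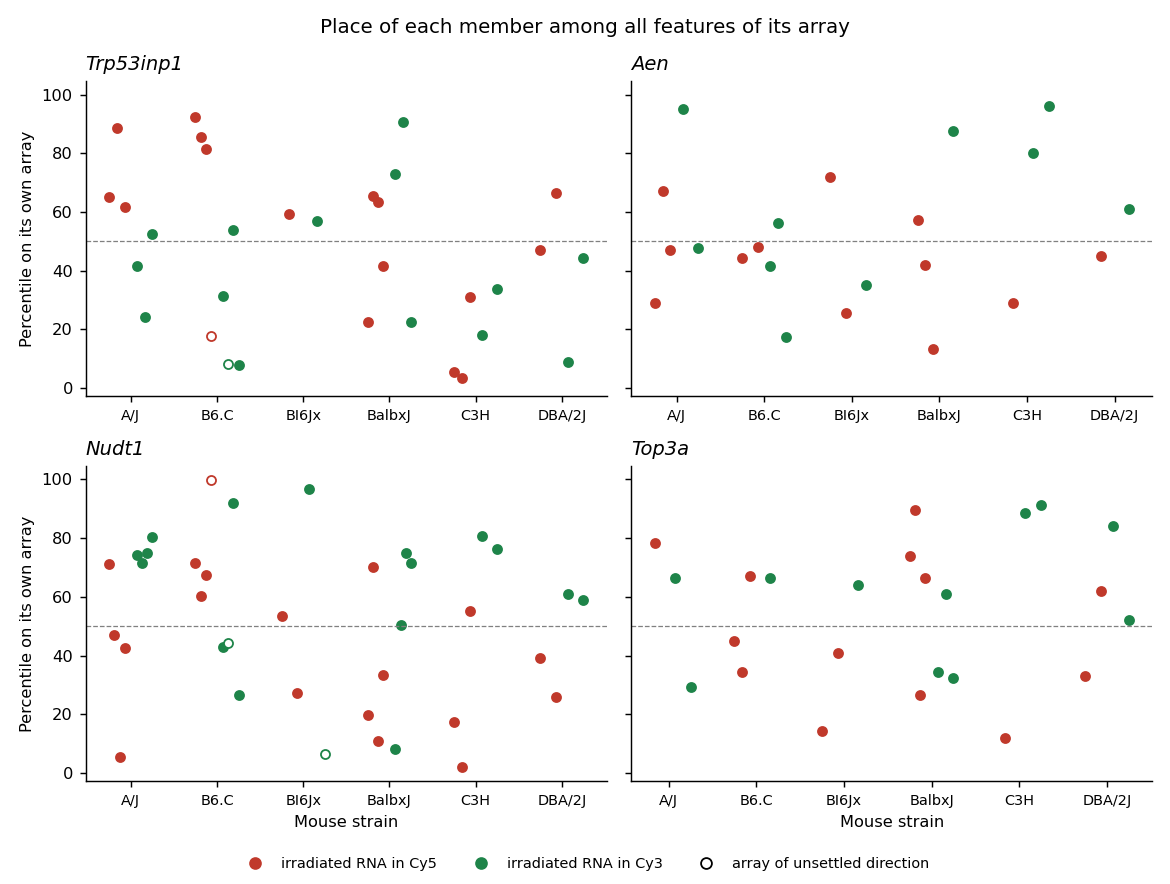
Percentile of each member's turned value among all features of the same array, by strain, in red for irradiated RNA in Cy5, green for Cy3 and open where the direction of the array is not settled. Values scatter on both sides of the 50th percentile in most strains, while Trp53inp1 stays between 3.57 and 33.9 in C3H.

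Over the arrays on which both had values, Pearson's r was 0.65 between Trp53inp1 and Nudt1 (32 arrays) and 0.71 between Aen and Top3a (18 arrays). Without C3H these became -0.23 (27 arrays) and -0.46 (15 arrays). Between Trp53inp1 and Aen r was -0.11 over 19 arrays and 0.59 over 16 without C3H. The sign of r thus changed without C3H in these 3 pairs. It did not for Trp53inp1 and Top3a (-0.45 over 21 arrays, -0.50 over 18 without C3H), Aen and Nudt1 (0.60 over 22, 0.40 over 19) or Nudt1 and Top3a (0.56 over 24, 0.19 over 21). These correlations share strain, dye orientation and array depth, and they are descriptions only.

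Genes most like each member over arrays were sought by Pearson's r on turned values, with at least 30 shared arrays, or at least 19 for Aen and Top3a, a limit chosen after seeing the data. The genes compared numbered 2597 for Trp53inp1, 3956 for Aen, 3797 for Nudt1 and 4672 for Top3a, and the 3 highest are given. For Trp53inp1 they were Wnt16 (r = 0.88, 32 arrays), Slc4a1 (0.84, 31 arrays) and Nmu (0.83, 30 arrays). Without C3H these r values were 0.77, 0.46 and 0.72. Wnt16 encodes a secreted Wnt ligand, Slc4a1 the anion exchanger of the red cell membrane and Nmu the neuropeptide neuromedin U.

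Slc4a1 was also one of the 5 erythroid marker genes measured, with a strain value of -3.49 in C3H. Among the others, Hba-a1 read 0.33, Klf1 0.11 and Epb42 -0.15 there. The median of the 5 erythroid genes was -0.15 in C3H, and ran per array from -0.69 to 0.46. Their part in the value of Trp53inp1 was not tested.

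For Nudt1 the most alike genes were Mok, a protein kinase (r = 0.96, 30 arrays), Ramp3, a receptor activity modifying protein (0.96, 34 arrays), and Gna11, a G protein subunit (0.96, 35 arrays). Without C3H they stood at 0.81, 0.88 and 0.86. For Aen they were Tnfrsf11b, which encodes osteoprotegerin (0.95, 21 arrays), Prdm1, which encodes the plasma cell regulator Blimp-1 (0.94, 20 arrays), and Gpr37 (0.94, 19 arrays). Without C3H these fell to 0.59, 0.074 and 0.16. The likeness of Prdm1 and Gpr37 to Aen thus rested on the C3H arrays.

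For Top3a they were Herpud2 (r = 0.95, 22 arrays), Nipsnap1 (0.95, 19 arrays) and the Polycomb gene Cbx2 (0.94, 21 arrays), and without C3H 0.68, 0.81 and 0.70. By rank, Spearman's rho of these most alike genes was lower. It ran from 0.53 to 0.77 for Trp53inp1, 0.35 to 0.59 for Aen, 0.83 to 0.86 for Nudt1 and 0.79 to 0.84 for Top3a.

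The surrounding pathways were read from 6 lists of genes. Over the lists, 38 genes other than the members passed the filter, of which 17 had a positive and 21 a negative mean over 6 strains (median -0.034). Without centring 31 of the 38 were positive, beside 71.2% of all features, whose median mean then stood at 0.12, and with scaled arrays 13 were positive. None was called after adjustment, as for 0% of all features. At an unadjusted p under 0.05 there was 1 of 38 (2.63%), beside 8.21% of all features. This gene was Bid, a death-promoting Bcl2 relative, with a mean of -0.31 ± 0.19 (SD, n = 6 strains) and a negative value in 6 of 6 strains. Nthl1, a glycosylase for oxidised pyrimidines, was positive in 6 of 6 (0.13 ± 0.11, SD, n = 6 strains). Of all features, 4.27% had one sign in all 6 strains. Bid and Nthl1 were named after their values were seen.

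Of the p53 core and its sensors, 6 of 8 measured genes were tested and 1 of the 6 was positive. Trp53, which encodes p53 itself, had the highest mean, 0.11 ± 0.22 (SD, n = 6 strains). Mdm2, the ubiquitin ligase that p53 induces and that degrades it, had -0.17 ± 0.23 (SD, n = 6 strains). The lowest was the checkpoint kinase gene Chek2 at -0.20 ± 0.40 (SD, n = 6 strains).

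Among p53 targets for growth arrest and repair, 3 of 8 genes tested were positive, and 13 were measured. Cdkn1a, which encodes the cell cycle inhibitor p21, had -0.087 ± 0.30 (SD, n = 6 strains), with -0.57 in C3H and 0.36 in DBA/2J. Btg2, an antiproliferative gene, had -0.057 ± 0.34 (SD, n = 6 strains). Gadd45b was the highest at 0.36 ± 0.78, and its relative Gadd45g the lowest at -0.22 ± 0.40 (SD, n = 6 strains each). Both are stress-response genes, and they stood on opposite sides.

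Among p53 targets for cell death and metabolism, 7 genes beside Trp53inp1 and Aen were tested, and 1 was positive. That gene was Apaf1, the apoptosome scaffold, with 0.26 ± 1.38 (SD, n = 6 strains), of which C3H gave 2.96 and the other 5 strains lay between -0.89 and 0.29. The death effector Bax had -0.17 ± 0.36 (SD, n = 6 strains), and the effector caspase gene Casp6 the lowest mean of this list, -0.53 ± 0.71 (SD, n = 6 strains). As in Trp53inp1 and Aen, C3H held the value farthest from 0 in Apaf1, while in Casp6 it was B6.C at -1.88.

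Among genes of the nucleotide pool and of oxidised base repair, 8 beside Nudt1 were tested and 6 were positive (median 0.051). Nudt3, a diphosphoinositol phosphatase of the Nudix family, had 0.062 ± 0.45, and its relative Nudt4 had 0.039 ± 0.31 (SD, n = 6 strains each). Ogg1, the glycosylase that cuts 8-oxoguanine out of DNA, had -0.051 ± 0.23 (SD, n = 6 strains). The Nudix family gene Nudt13 was the highest at 0.19 ± 0.33, and the dNTP hydrolase gene Samhd1 the lowest at -0.066 ± 0.20 (SD, n = 6 strains each). Nudt1, at -0.18, lay below these with all arrays, but at 0.013 without C3H array 27.

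Of the topoisomerases and their partners, 4 genes beside Top3a were tested, 2 of them positive. Top3b, the other type IA enzyme, had the highest mean, 0.26 ± 0.19 (SD, n = 6 strains), beside Top3a at 0.19 ± 0.21. Both were positive in 5 of 6 strains, and how many of all features were so was not counted. The side of Top3a depended on dye, with means over strains of -0.24 from Cy5 arrays alone and 0.62 from Cy3 arrays alone. Top1 had -0.025 ± 0.22 and Top2a 0.057 ± 0.52 (SD, n = 6 strains each). Tdp2, which removes trapped topoisomerase II from DNA ends, was the lowest at -0.14 ± 0.32 (SD, n = 6 strains).

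Of the exonucleases, 5 beside Aen were tested and 4 were positive. Eri2 was the highest at 0.38 ± 0.84 and Trex2 the lowest at -0.25 ± 0.72 (SD, n = 6 strains each). In C3H Eri2 read 2.00 and Trex2 -1.27. Ccng1, Gadd45a, Fas, Nudt2, Nudt5, Apex1, Top2b, Blm, Wrn, Exo1 and Isg20 were measured on 10 to 29 arrays each and did not pass the filter.

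**Figure D4:**
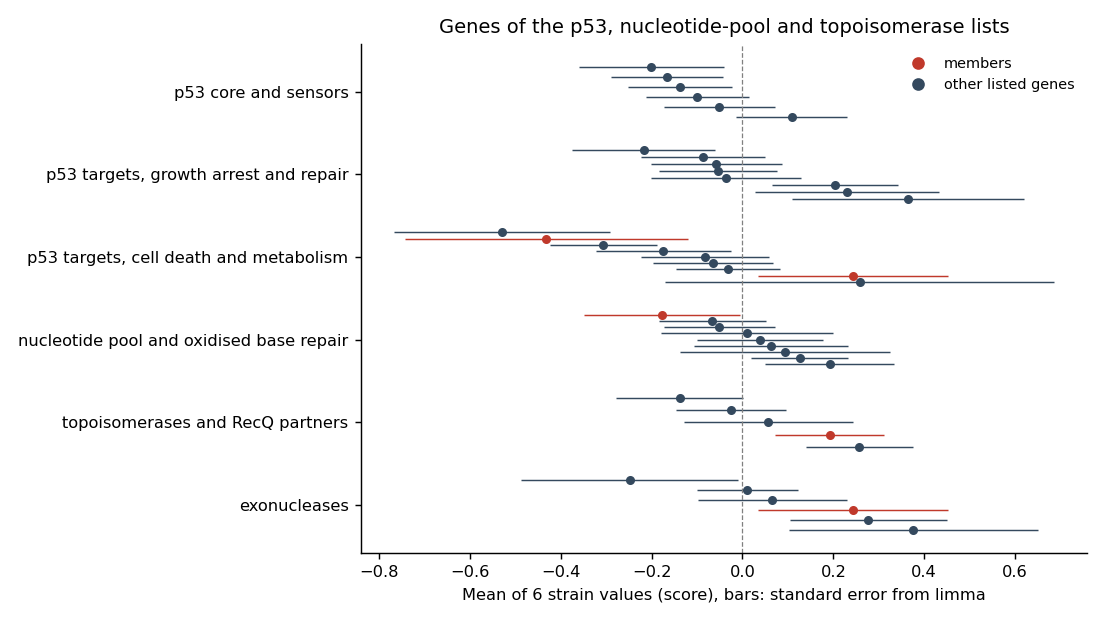
Mean of 6 strain values (score) of each tested gene in the 6 lists, with the standard error from limma as bars, members in red and other genes in dark blue. Genes lie on both sides of 0 in every list, and Casp6 (-0.53) and then Trp53inp1 (-0.43) are the lowest in the cell death list.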

How the data were processed

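The authors deposited 1 signed score per spot for each of 38 arrays. Their methods describe removal of poor or weak spots, background subtraction and Lowess within arrays, but Lowess would not leave the array medians found; scale, log base and direction are not stated. Control spots were left out, spots of one probe averaged and arrays centred and turned. Limma 3.58.1 in R 4.3.3 (lmFit, eBayes) tested strain values against 0, single strains with dye as a covariate, and strain differences by an F test, with Benjamini-Hochberg adjusted p under 0.05 over all features. Because exchanged-dye arrays could not be paired, p-values within strains are too small. The single strains were coefficients of 1 fit over all arrays, with a shared spread that can be too small for C3H. In simulated data the fit over strains called 3 of 67 features given a change of 0.5 score units. It called 39 of 67 given 1 and 64 of 66 given 2. For the C3H coefficient the calls were 0 of 67, 20 of 67 and 51 of 66. The simulated noise was independent, with 1 SD per feature on every array, so wider C3H arrays and shared mice were not in it. Its rates are therefore no measure of what these data could recover, least of all in C3H. Figures were drawn with matplotlib 3.10.9. Named genes are the members, a set list of pathway genes, the extremes of each list and the 3 genes most like each member; Bid, Nthl1 and erythroid markers beside Slc4a1 were added after their values were seen. The members and lists were chosen with earlier results of these data known. Symbols came from RefSeq, GRCm38.p6. The value of 1 marker gene is not reported here.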

Additional observations from a re-analysis of the deposited data

Results flagged for a closer look

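A sample far from the others was sought in 21 groups of values and set 5 apart. Chance sets apart about 1 in 20 groups, but the members were selected on these values, so the number supports nothing. Over the 6 strains, C3H stood apart in Trp53inp1 (-2.38) and in Aen (1.44). Among arrays of a strain, array 54 stood apart for Aen in B6.C (-1.21), array 87 for Nudt1 in A/J (-1.24) and array 53 for Nudt1 in B6.C (3.05). For Trp53inp1 every array of C3H was negative and both arrays of BI6Jx were positive, a difference in strain value of -2.53 that was not tested.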

How the results depend on the processing

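Of 358 member values that a setting altered, 346 moved by under 1 SD over arrays or strains and 50 changed sign. These SDs are wide, so the first count does not show that values were stable. For Trp53inp1 the mean going from -0.43 to -0.043 without C3H stayed under its SD of 0.98. With 1 array or 1 strain left out, a mean was had only where the member still passed the filter. That gave 42 means for Trp53inp1, 36 for Aen, 44 for Nudt1 and 39 for Top3a. Aen and Top3a had no such mean without C3H array 29, their only C3H array with irradiated RNA in Cy5. Within these runs, the mean over strains ran from -0.57 to -0.043 for Trp53inp1 and 0.0042 to 0.41 for Aen. It ran from -0.32 to 0.013 for Nudt1 and 0.12 to 0.25 for Top3a. Leaving out C3H gave the end nearest 0 for Trp53inp1, Aen and Top3a, and leaving out C3H array 27 gave it for Nudt1. Top3a moved to -0.24 with Cy5 arrays alone and to 0.62 with Cy3 arrays alone. Without centring, 31 features were called over 6 strains against 0, 4369 against 78 between strains, and 0, 2 and 0 against 27, 5 and 74 within B6.C, BI6Jx and C3H. Scaled arrays gave 606 between strains, and 108, 1, 2 and 1 within B6.C, BalbxJ, BI6Jx and C3H. With the 3 unsettled arrays turned, B6.C and BI6Jx gave 0 each, and without them 17 and 0, with 121 between strains. Cy3 arrays alone gave 30 between strains, and a robust spread 13 in B6.C. Likeness, correlations and dye means without C3H were added after seeing the data. The pathway lists gave 0 calls in every setting run. The cause of these changes was not tested. Every value rests on few arrays, and arrays of one pair of mice are counted as separate within a strain. No paired analysis was possible because the labels do not number the pairs of mice.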
